A study of Rattus norvegicus with 102 samples.

Results

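The CA3 field of the hippocampus was compared between old rats that had done poorly in the water maze (impaired) and young rats. The comparison held 22 of the series' 102 libraries, 1 from each rat, which were 12 from impaired rats aged 17 to 22 months and 10 from young rats aged 5 to 6 months, chosen by the group that the sample titles give. All were male Fischer 344 rats without a genetic change or drug, and all had been trained in the maze 2 weeks before the tissue was taken. An old rat had been called impaired when its probe-trial discrimination index lay below the lowest young score, so the impaired rats differ from the young ones in age as well as in memory. The 12 unimpaired old rats entered a side comparison that is named as such and an alternative fit over all 34 CA3 libraries. Poly-A RNA of each piece had been sequenced on Illumina and on Ion Proton, and a further table of the same samples, named WT, has a library type that is not given in the sources used here. Values are normalised reads, that is, read counts of a gene divided by the library's size factor. In the 22 Illumina libraries, 3.25 to 42.8 M reads were assigned to genes.

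CA3 pyramidal cells receive mossy fibres from the dentate gyrus (DG) and send their axons to CA1, and the recurrent synapses among them are held to serve the recall of whole memories from partial cues. Microglia, the resident macrophages of the brain, carry complement, Fc and purine receptors that let them sense and take up debris, and with age they raise genes of antigen presentation. Major histocompatibility complex (MHC) class II molecules are pairs of an alpha and a beta chain that show peptides to T cells, and Cd74, the invariant chain, holds the peptide groove closed until the pair reaches the endosome.

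Some libraries did not follow their label. By their mean levels of CA1, CA3 and DG neuron markers, 3 of 12 impaired libraries (R9781 and R9870 nearest DG, R9875 nearest CA1) and 3 of 10 young libraries (R9876, R9877 and R9879, nearest CA1) lay nearer the mean of another subfield in both poly-A tables, and all were from rats numbered 9000 or higher. The summed markers of CA3 pyramidal cells ran from 6195 to 23870 normalised reads in young and from 5978 to 20964 in impaired rats (permutation p = 0.976, adjusted p = 0.997 over 29 library measures). One young library, R9876, held tissue of the meninges. Its summed leptomeningeal markers reached 181611 normalised reads, whereas the other young libraries reached at most 8305 and the impaired libraries at most 6480, and 22 of the 23 markers were higher in R9876 than in any other of the 22 libraries. Collagen Col1a1 stood at 3211 normalised reads there and at most at 101 in the other young rats. In bulk tissue, a change in the number of cells of a type and a change in RNA per cell cannot be told apart.

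Of 14255 genes tested, none reached an adjusted p under 0.05 in the Illumina table (limma, lowest adjusted p = 0.359), while 350 genes, or 2.46%, had an unadjusted p under 0.05 (1.48% higher, 0.975% lower). A gene was therefore called retested when it had p under 0.01 in the Illumina table and the same direction with a one-sided p under 0.05 in the Ion Proton table. These are the thresholds of the study, applied here to limma p-values, whereas the study used DESeq2. They called 39 genes, 0.274% of those tested, of which 32 were higher (0.224%) and 7 lower (0.0491%) in impaired rats. On the recovered reads, the same thresholds called 67 genes with edgeR (35 higher, 32 lower) and 74 with DESeq2 (53 higher, 21 lower), and 7 genes had an adjusted p under 0.05 with DESeq2. A limma fit over all 34 CA3 libraries called 49 (40 higher, 9 lower), 35 of them among the 39. Both tables were made from the same RNA, so the second table bears on sequencing error and not on variation between rats. In the WT table, 38 of the 39 could be tested (all but Cyp2a3) and all 38 had the same sign, and 31 of the 39 kept the call when WT took the place of Ion Proton. Wdfy4 (p = 0.388), Cnpy4 (p = 0.366), Stac (p = 0.364) and Tmem132c (p = 0.292) were among those whose limma p in WT was high. The WT libraries came from the same rats as well. When each library was left out in turn, 21 of the 39 kept the call in all 22 fits. Those that did not included Prl, Tnnc2, Fcrl2, Wdfy4, Ncf1, Psd4, Emr1, Dctd, Fgfrl1, Nckap1l, Blnk and Nek6 among the higher genes and Cnpy4, Ptn, Tmem163, Tmem132c and Stac among the lower ones. The groups did not separate completely for any gene (0 of 14255 genes with every impaired library above or every impaired library below all young ones). The highest impaired library was R2238 for 20 of the 32 higher genes. The highest young library was R9876 for 13 of the 39 genes.

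**Figure D1:**
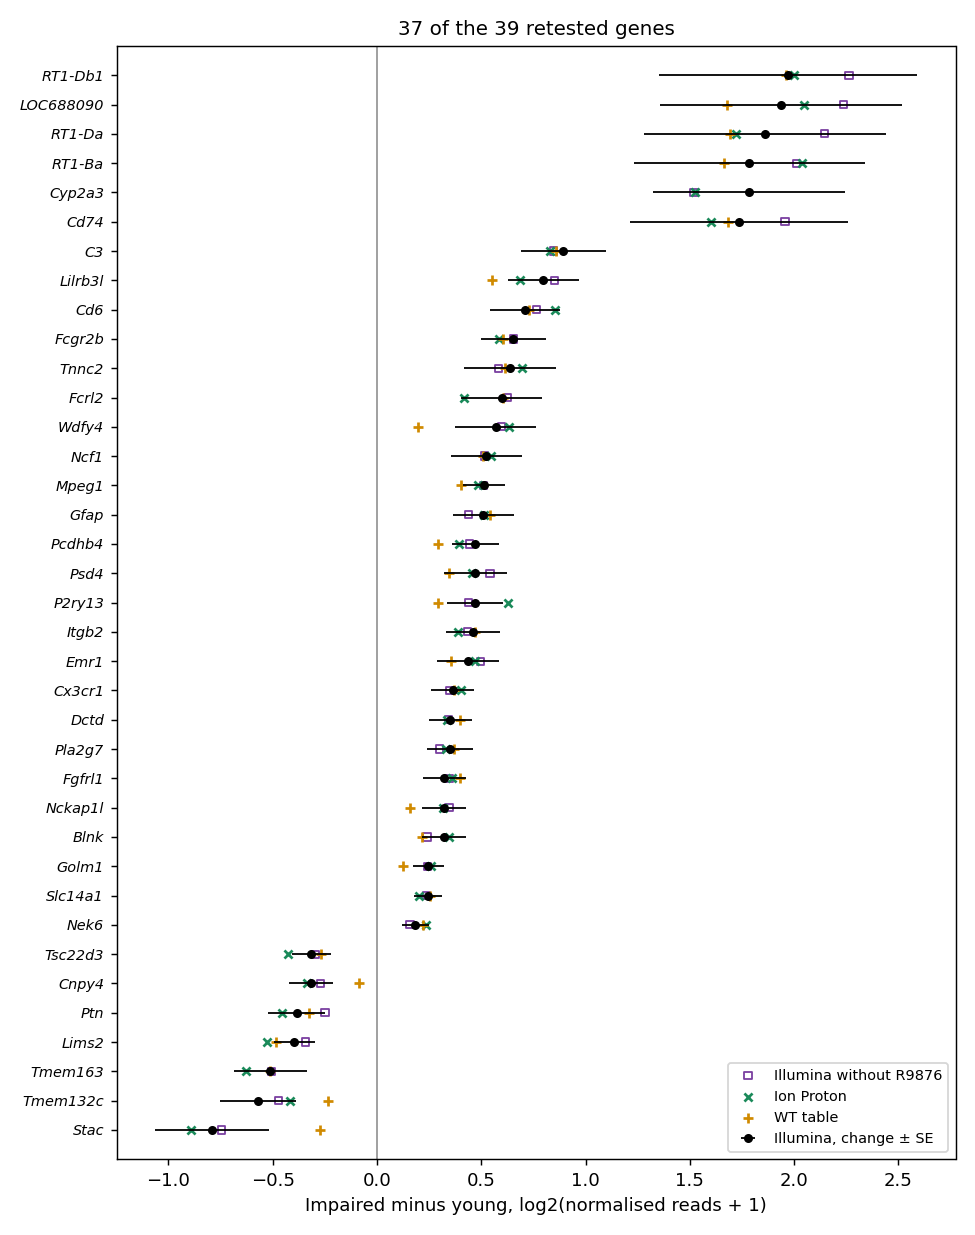
Change of 37 of the 39 retested genes in CA3, impaired minus young on the log2(normalised reads + 1) scale, in the Illumina table with its SE (black, 12 impaired against 10 young libraries), without young rat R9876 (squares), in the Ion Proton table (crosses) and in the WT table (plus signs). The MHC class II genes and Cyp2a3 lie to the right of 1.7, and the lowest is Stac at -0.79.

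All tested MHC class II genes were higher in impaired rats. Of 10 genes of the list found in the tables, 5 passed the filter of a mean of 10 normalised reads, and all 5 were retested as higher, with a median change of 1.86 on the log2 scale beside -0.01 for all genes. The summed level of all 10 genes of the list had medians of 329 normalised reads in young and 1085 in impaired rats (permutation p = 0.013, adjusted p = 0.126 over 29 library measures). The other 5 stayed under the filter, among them RT1-DMa, which was listed at 0 in every young and impaired library, and Ciita. Ciita, the coactivator that class II promoters depend on, had medians of 6.22 normalised reads in young and 6.85 in impaired rats.

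The stretches before the start sites of the class II chain genes are shown because these genes moved together and share promoter boxes. The 130 bases before the start are given 5′ to 3′ on the gene's strand from RefSeq (build GRCr8), in lower case, with matches to the Y box core CTGATTGG and to the X box core CAACNGATG in capitals. RT1-Da lies on the plus strand at chr20:4515285-4515414, RT1-Db1 on the minus strand at chr20:4560163-4560292 and RT1-Ba on the plus strand at chr20:4576927-4577056.
RT1-Da: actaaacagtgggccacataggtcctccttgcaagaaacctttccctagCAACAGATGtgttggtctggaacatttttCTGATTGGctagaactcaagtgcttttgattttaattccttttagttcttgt
RT1-Db1: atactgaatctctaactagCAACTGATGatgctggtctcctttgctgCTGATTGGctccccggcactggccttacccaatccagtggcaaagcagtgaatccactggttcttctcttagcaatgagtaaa
RT1-Ba: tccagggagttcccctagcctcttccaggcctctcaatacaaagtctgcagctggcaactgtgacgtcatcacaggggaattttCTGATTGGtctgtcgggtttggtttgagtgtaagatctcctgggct
Searched on both strands, the Y box core was found in all 3, and the X box core upstream of it in RT1-Da and RT1-Db1. Over windows of the same length in all 33469 promoters, 2.25% held the Y box core and 0.263% the X box core, and the cores do not overlap in these promoters. Of the 39 retested genes, 29 had a promoter entry, and of these the Y box core occurred in the class II chain genes shown and in Tnnc2. LOC688090 had no promoter entry and was not searched.

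RT1-Db1, a class II beta chain of the RT1.D pair, ranged from 8.59 to 194 normalised reads in young rats (median 24.1) and from 20.9 to 1975 in impaired rats (median 101). It was higher in impaired rats by 1.97 ± 0.62 (log2, SE, p = 0.00409), and 11 of 12 impaired libraries lay above the young median. The alpha chain of the same pair, RT1-Da, ran from 12.3 to 268 (median 41.9) in young and from 37.3 to 2263 (median 143) in impaired rats, a difference of 1.86 ± 0.58 (log2, SE, p = 0.00384). RT1-Ba, the alpha chain of the RT1.B pair, had medians of 38.2 and 128 normalised reads and a difference of 1.79 ± 0.56 (log2, SE, p = 0.00375). For each of these, R2238 was the highest impaired and R9876 the highest young library, and the groups overlapped. R2238 stood far above the other 11 impaired libraries, with RT1-Db1 at 1975 against 342 in the next, and the 5 genes summed to 16466 normalised reads there against 3389. LOC688090, a locus without a gene name that was placed in the class II list, had medians of 28.3 and 106 normalised reads (change 1.94 ± 0.58, p = 0.00279). Cd74 ran from 84.7 to 868 normalised reads in young rats (median 181) and from 160 to 8694 in impaired rats (median 610), and was higher by 1.73 ± 0.52 (log2, SE, p = 0.00289). The class II genes resemble one another, so the split of reads among them is uncertain. Leaving out 1 library at a time moved the change of RT1-Db1 between 1.61 and 2.26 and that of Cd74 between 1.41 and 1.96, and both calls held each time. With DESeq2 on the recovered reads the changes of the 5 genes were smaller, from 1.20 to 1.30, and RT1-Db1 (1.30, p = 0.0141) and RT1-Da (1.20, p = 0.0157) were not retested. With edgeR they ran from 2.28 to 2.48 and all 5 were retested. DESeq2 was run with its default handling of outlying counts, and the part of R2238 in its smaller changes was not tested.

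The change in class II genes differed in size between the number series, though no difference held after adjustment. In rats numbered below 9000, all 7 impaired libraries exceeded all 5 young ones for each of the 5 genes, an arrangement that 27 of 14142 genes (0.191%) showed. RT1-Db1 spanned 14.2 to 58.7 normalised reads in these young and 95.5 to 1975 in these impaired rats, and the change was 3.07 (log2). Among rats numbered from 9000 up, the 5 young libraries ran from 8.59 to 194 and the 5 impaired from 20.9 to 84.9, and the change was 0.50. None of the 5 class II genes was retested in this series alone (limma, p from 0.379 to 0.553). Cd74 changed by 2.63 in the lower and 0.51 in the higher number series. The difference between the series had p = 0.0254 for RT1-Db1, 0.0267 for Cd74, 0.0411 for LOC688090, 0.046 for RT1-Ba and 0.0697 for RT1-Da (limma interaction, adjusted p = 0.861 for each), and 738 of 14255 genes had p under 0.05 and 0 an adjusted p under 0.05. In the Ion Proton table the values for these genes were 0.0439, 0.112, 0.0809, 0.23 and 0.0473 in the same order (limma, unadjusted). Without R9876 the changes in the higher series were 1.11 for RT1-Db1 and 0.99 for Cd74, and the differences had p from 0.0627 for RT1-Db1 to 0.173 for RT1-Da. In the higher series the class II list had a median of 0.60, below the lists of the pituitary (0.75) and of dentate granule cells (0.84). Of the 2 pituitary genes tested with all 22 libraries, Prl had no value in this series. All 6 libraries nearer another subfield are in this series, with impaired R9781 and R9870 nearest DG, so the dentate value goes with those libraries. Of the other retested genes, Lilrb3l (1.12 below 9000 and 0.41 from 9000 up, p = 0.0348), Tnnc2 (0.23 and 1.14, p = 0.0361) and Ptn (-0.11 and -0.66, p = 0.0348) also had a p under 0.05 before adjustment, as 738 genes in all did (limma, adjusted p = 0.861 for each). Without R9876 their p was 0.0645, 0.0621 and 0.0548, and the change of Ptn from 9000 up was -0.42. The rats had come from 2 sites, each with its own supplier, and which numbers belong to which site is not given in the sources used here. Site, supplier and number series therefore cannot be told apart.

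**Figure D2:**
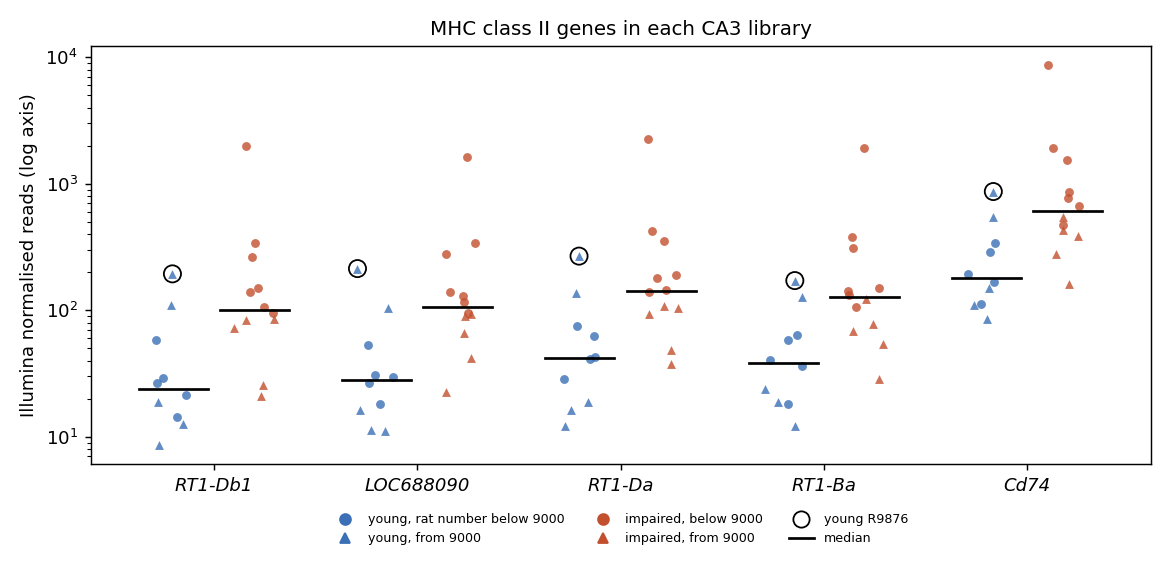
Normalised reads (Illumina, log axis) of 5 MHC class II genes in each of the 10 young (blue) and 12 impaired (red) CA3 libraries, with circles for rats numbered below 9000, triangles for those from 9000 up, a ring around young R9876 and a bar at each median. For every gene the red circles lie above all blue circles, and the triangles of both groups overlap.

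Of 22 microglial genes tested, 2 were retested as higher and 20 were not called. Outside that list, Mpeg1, which encodes the pore-forming protein perforin-2 of macrophages, had the lowest p of the retested genes. It ranged from 484 to 795 normalised reads in young (median 613) and from 697 to 1282 in impaired rats (median 905), a change of 0.52 ± 0.10 (log2, SE, p = 3.15e-05), and all 12 impaired libraries lay above the young median. Its Ion Proton change was 0.48 and its WT change 0.41. The change of Mpeg1 was 0.59 in rats numbered below 9000 and 0.46 in those from 9000 up, and it stayed between 0.47 and 0.55 when any library was left out.

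Among receptors, Cx3cr1, which binds fractalkine from neurons, ran from 314 to 426 normalised reads (median 349) in young and from 339 to 708 (median 450) in impaired rats, higher by 0.36 ± 0.10 (log2, SE, p = 0.00169). P2ry13, an ADP receptor, had medians of 52.2 and 67.5 normalised reads and was higher by 0.47 ± 0.13 (p = 0.00175). Fcgr2b, the inhibitory receptor for IgG, ran from 67.6 to 139 (median 97.1) in young and from 106 to 248 (median 133) in impaired rats, higher by 0.65 ± 0.16 (p = 0.000352). Lilrb3l, named for its likeness to leukocyte immunoglobulin-like receptors, had 10 of 12 impaired libraries above the highest young one, with medians of 42.2 and 73.1 normalised reads and a change of 0.80 ± 0.17 (p = 0.000101). Fcgr2b, Lilrb3l and Fcrl2 belong to families of similar genes whose reads may be shared. Fcrl2, an Fc receptor-like gene, had medians of 287 and 410 and a change of 0.60 ± 0.19. It was not retested with edgeR (0.52, p = 0.0107), with DESeq2 or without the 6 libraries nearer another subfield (p = 0.0237, limma). Emr1, the F4/80 antigen of macrophages, had medians of 173 and 217 normalised reads and a change of 0.44 ± 0.15.

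In impaired rats 21 of the 22 genes of the microglial list had higher values, against 45.0% of all genes, with a median change of 0.25 beside -0.01. Cx3cr1 and P2ry13 were the genes retested, none of the list was called lower, and those not called included Tmem119 (0.17 ± 0.10, p = 0.0958) and Aif1 (0.15 ± 0.17, p = 0.387). Csf1r, the receptor for the growth factor microglia live on, had a change of 0.23 ± 0.08 (p = 0.00894) that was not retested (Ion Proton 0.18). The summed list ran from 9150 to 12120 normalised reads in young (median 9891) and from 9880 to 17641 in impaired rats (median 11871; permutation p = 0.00486, adjusted p = 0.0705 over 29 library measures). Blood cell markers had higher values too, in 6 of 6 tested genes with none retested (median 0.20, and 0.41 without R9876), and their sum had medians of 1255 normalised reads in young and 2401 in impaired rats (permutation p = 0.71, adjusted p = 0.889). Their part in the microglial values was not tested. Of the list of Trem2 signalling and Fc receptors, Fcgr2b was called out of 19 tested genes, and the median was 0.17.

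Of 22 complement genes tested, C3 and Itgb2 were retested, both higher. C3, the component on which all complement pathways meet, ran from 600 to 1133 normalised reads in young rats (median 810) and from 930 to 4343 in impaired rats (median 1178), higher by 0.89 ± 0.20 (log2, SE, p = 0.000212), and 8 of 12 impaired libraries exceeded every young one. Itgb2, the integrin chain that forms complement receptor 3, ran from 138 to 190 in young (median 169) and from 174 to 426 in impaired rats (median 203), higher by 0.46 ± 0.13 (p = 0.0016). In all, 19 of the 22 had higher values (median 0.22), against 45.0% of all genes. The list median was 0.45 in rats numbered below 9000 and 0.02 in those from 9000 up, and 14 of 21 were higher in the Ion Proton table. The C1q chains had changes of 0.35 ± 0.17 (C1qa, p = 0.0575), 0.29 ± 0.17 (C1qb, p = 0.106) and 0.25 ± 0.18 (C1qc, p = 0.175). Ncf1, a subunit of the phagocyte NADPH oxidase, had medians of 105 and 144 normalised reads and a change of 0.52 ± 0.17 (p = 0.00512). Nckap1l, the WAVE complex member of blood-lineage cells, changed by 0.32 ± 0.11, and Pla2g7, a phospholipase of lipoproteins and macrophages, by 0.35 ± 0.11. No lysosomal gene was retested of 31 tested (median 0.06), though 6 had an unadjusted p under 0.05 and a higher value, the lowest being Laptm5 (0.37 ± 0.09, p = 0.000554, Ion Proton 0.12). No interferon response gene of 33 tested had a p under 0.05 (limma, median 0.03), and none of 19 genes of MHC class I processing was retested.

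**Figure D3:**
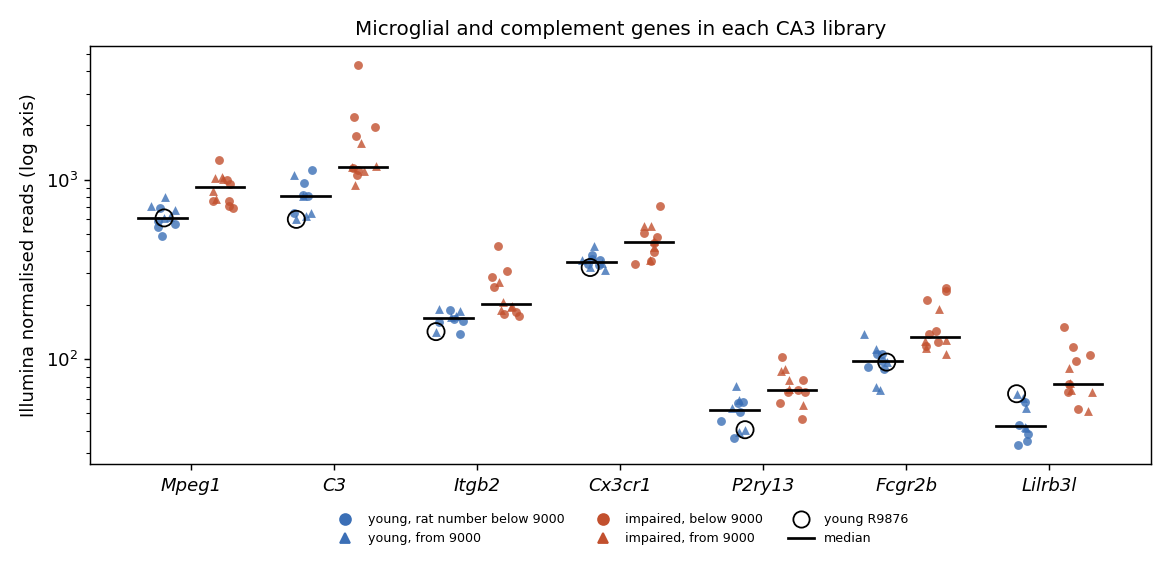
Normalised reads (Illumina, log axis) of 7 microglial and complement genes in each of the 10 young (blue) and 12 impaired (red) CA3 libraries, with symbols as for the class II genes and a bar at each median. The impaired medians lie above the young medians for every gene, with the groups overlapping, and R2238 is the highest library for C3, at 4343.

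Some retested genes are best known from lymphocytes or dendritic cells, a grouping made after their values were seen. Cd6, a surface glycoprotein of T cells, ran from 21.6 to 43.4 normalised reads in young (median 30.6) and from 33.0 to 80.6 in impaired rats (median 53.4), higher by 0.71 ± 0.17 (log2, SE, p = 0.000273). Blnk, the B cell linker, had medians of 146 and 185 and a change of 0.32 ± 0.11. Wdfy4, needed for cross-presentation in dendritic cells, changed by 0.57 ± 0.20. The list of T cell markers was close to absent, since 13 of its 14 genes averaged under 10 normalised reads. The one tested, Lck, had a change of -0.25 ± 0.16 (log2, SE, p = 0.139) and was not called. Its sum had medians of 47.5 in young and 56.9 in impaired rats (permutation p = 0.622, adjusted p = 0.889). The highest young sum was that of R9876 at 116, with the next at 56.7, and without R9876 the unadjusted permutation p was 0.0382.

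Of the astrocyte markers, 2 of 18 tested were retested, both higher, and the median of the list was 0.07. Gfap, the intermediate filament of astrocytes, ran from 7592 to 19499 normalised reads in young (median 12546) and from 12229 to 24353 in impaired rats (median 16328), higher by 0.51 ± 0.14 (log2, SE, p = 0.00174). Slc14a1, a urea transporter, had medians of 754 and 880 and a change of 0.24 ± 0.07 (p = 0.00128), and all 12 impaired libraries lay above the young median. The summed astrocyte markers had medians of 139779 and 138429 normalised reads (adjusted permutation p = 0.889). Aqp4, the water channel of astrocyte endfeet, was not called (0.15 ± 0.08, p = 0.0935). Neither Gfap nor Slc14a1 was retested without the 6 libraries nearer another subfield, where the changes were 0.34 (p = 0.0389) and 0.26 (p = 0.00365), or in rats numbered below 9000 alone, where they were 0.35 (p = 0.0562) and 0.21 (p = 0.0367, limma).

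The other higher genes had mixed roles. Prl, the pituitary hormone prolactin, was listed at 0 in all 10 young libraries, and 7 of 12 impaired libraries held 3 reads or fewer, so no fold change is given. The highest impaired library, R2233, reached 374 normalised reads and the impaired median was 1.64. The summed pituitary markers, Prl among them, reached 623 normalised reads in R2233 against at most 50.5 in young libraries. Of the 8 markers, 6 averaged under 10 normalised reads. The sum in R2233 thus holds the 374 of Prl itself, and the part of the other markers was not tested. Cyp2a3, a cytochrome P450, ran from 0 to 26.5 (median 5.03) in young and from 7.99 to 28.4 (median 17.9) in impaired rats. Its fitted change was 1.78 ± 0.46 (p = 0.000748), 4 young libraries held 3 reads or fewer, and edgeR on the reads gave 1.04 (p = 0.017), which was not a call. Cyp2a3 was also not retested with edgeR without R9876, without the libraries nearer another subfield, in either number series alone or with WT, where it could not be tested. Pcdhb4, a clustered protocadherin of neuronal adhesion, had 9 of 12 impaired libraries above the highest young one, with medians of 73.2 and 102 and a change of 0.47 ± 0.11 (p = 0.000291). Of 70 cadherins and protocadherins tested, 55 were higher (median 0.13), against 45.0% of all genes, and Pcdhb4 was the one retested. In Ion Proton libraries 48 of the 70 were higher (median 0.10), and in WT libraries the median was 0.02. The list median was 0.06 in rats numbered below 9000 and 0.15 in those from 9000 up. Without the libraries nearer another subfield it was 0.08. Reads of the clustered protocadherins may be shared among them. Fgfrl1, an FGF receptor without a kinase domain, had 10 of 12 impaired libraries above the highest young one, with medians of 174 and 212 and a change of 0.32 ± 0.10. Dctd, a deaminase of nucleotide synthesis, changed by 0.35 ± 0.10, Psd4, an exchange factor for Arf6, by 0.47 ± 0.15, Golm1, a Golgi membrane protein, by 0.25 ± 0.07, and Nek6, a mitotic kinase, by 0.18 ± 0.06. Tnnc2, the troponin C of fast muscle, had medians of 30.5 and 53.9 and a change of 0.64 ± 0.22, and was not retested with edgeR (0.55, p = 0.0214) or DESeq2 (0.56, p = 0.0166).

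Of the 7 lower genes, Tsc22d3 and Lims2 kept the call whichever library was left out. Tsc22d3, the glucocorticoid-induced leucine zipper GILZ, ran from 940 to 1494 normalised reads in young (median 1167) and from 763 to 1201 in impaired rats (median 860), a change of -0.31 ± 0.09 (log2, SE, p = 0.00253). Of 12 impaired libraries, 8 lay below every young library. It was the 1 retested gene of 18 tested on the corticosteroid list, whose median was -0.05. The glucocorticoid receptor's targets Fkbp5 (-0.03 ± 0.08, p = 0.714) and Sgk1 (-0.20 ± 0.16, p = 0.233) were not called. Lims2, a LIM adaptor of focal adhesions, ran from 143 to 276 in young (median 189) and from 131 to 171 in impaired rats (median 150), a change of -0.40 ± 0.10 (p = 0.000567), and all 12 impaired libraries lay below the young median. It was the 1 retested gene of 15 tested on the list of oligodendrocyte precursors.

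The other 5 lower genes were not retested once R9876 was left out. Ptn, the growth factor pleiotrophin, stood at 6318 normalised reads in R9876 and at most at 3172 in other young rats, and its change went from -0.38 ± 0.14 to -0.25 (p = 0.00545). Stac, an adaptor of voltage-gated calcium channels, was highest in young R9879 at 117, a library nearer CA1, with medians of 38.4 and 29.8 and a change of -0.79 ± 0.27 (-0.74 without R9876). Tmem132c, a transmembrane protein, changed by -0.57 ± 0.18 (-0.47 without R9876), Tmem163, a zinc transporter, by -0.51 ± 0.18 (-0.50) and Cnpy4, a chaperone of Toll-like receptors, by -0.31 ± 0.10 (-0.27). Without the 6 libraries nearer another subfield none of these 5 was retested, and the changes were -0.37 for Stac (p = 0.172), -0.12 for Ptn (p = 0.0808), -0.23 for Tmem132c (p = 0.202), -0.45 for Tmem163 (p = 0.0561) and -0.27 for Cnpy4 (p = 0.0136, limma). In rats numbered below 9000, Stac changed by -0.31, Ptn by -0.11 and Tmem132c by -0.27 (p = 0.32, 0.0877 and 0.19), and in rats from 9000 up, where all of those 6 libraries lie, by -1.26, -0.66 and -0.89. Tmem163 (-0.56 below 9000 and -0.42 from 9000 up) and Cnpy4 (-0.29 and -0.34) had changes of like size in both series.

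**Figure D4:**
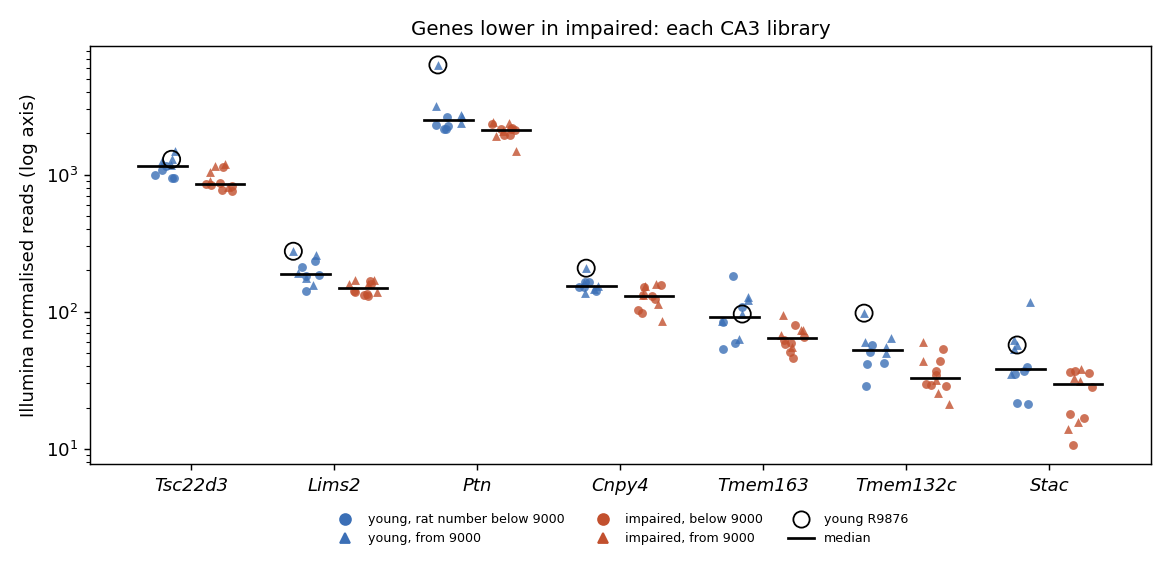
Normalised reads (Illumina, log axis) of the 7 genes lower in impaired rats in each of the 10 young (blue) and 12 impaired (red) CA3 libraries, with symbols as for the class II genes and a bar at each median. Young R9876 (ringed) is the highest library for Ptn at 6318, and for Cnpy4, Lims2 and Tmem132c.

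Leaving out R9876 called 46 genes (0.324% of 14207), 43 higher (0.303%) and 3 lower (0.0211%), and 29 of these were among the 39 above. All 39 kept their sign. Tnnc2, Dctd, Blnk and Nek6 were among the higher genes that lost the call. Cdh1, the adhesion protein E-cadherin, then reached an adjusted p under 0.05 as the only gene of the 14207. It stood at 582 normalised reads in R9876, at most at 38.5 in the other young libraries and between 17.4 and 73.6 in impaired rats (median 49.0). With R9876 the change of Cdh1 was 1.35 ± 0.54 (p = 0.0204), and without it 1.91 ± 0.30 (limma, adjusted p = 0.0219). In the Ion Proton table it was 1.11 without R9876 (two-sided p = 0.0624), and edgeR without R9876 gave an adjusted p of 0.257. Cdh1 is itself on the list of leptomeningeal markers. C4b, a complement component, went from 1.00 ± 0.40 (p = 0.0192) to 1.30 (p = 0.000511) without R9876, where it stood at 215 normalised reads against a young median of 25.7. Gpr183, an oxysterol receptor of immune cells, Spi1, the transcription factor PU.1, and Fcer1g, the shared Fc receptor gamma chain, were also retested without R9876 (0.72, 0.46 and 0.37). The leptomeningeal list had a median of -0.56 with R9876 and -0.06 without it, border macrophages -0.24 and 0.11, and the choroid plexus -0.52 and -0.28. Without the 6 libraries nearer another subfield, 41 genes were called, of which 36 were higher and 19 were among the 39, and the median was 2.32 for class II genes, 0.28 for microglia and 0.04 for leptomeninges.

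**Figure D5:**
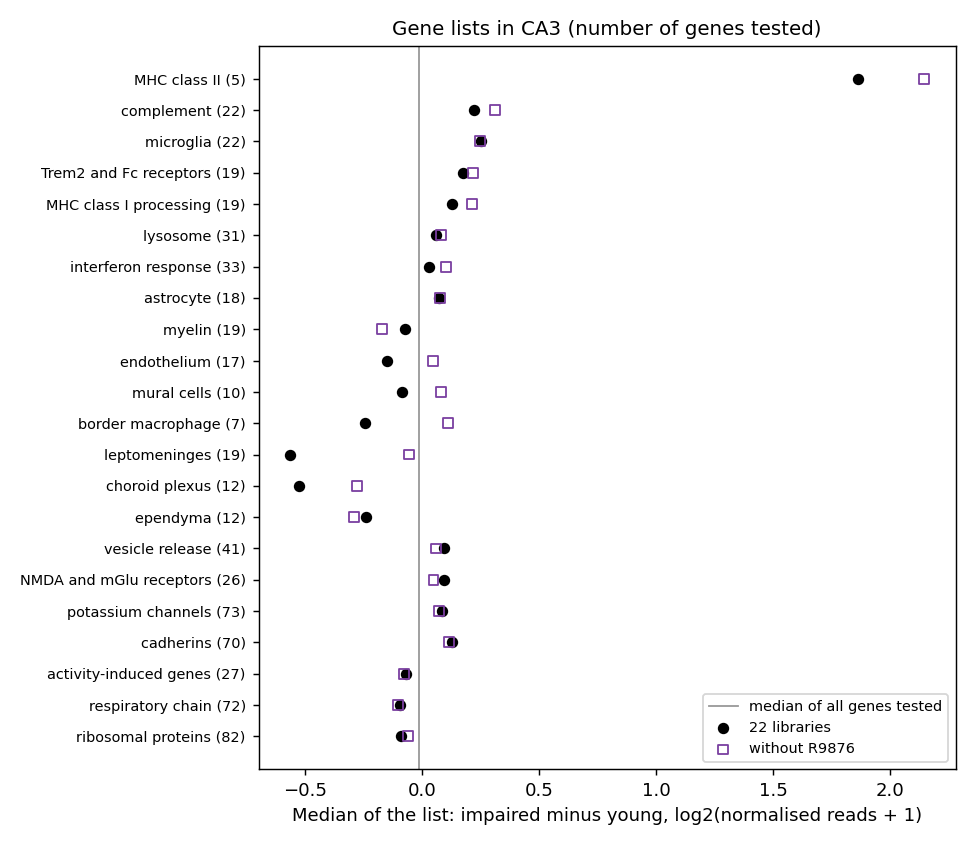
Median change of 22 gene lists in CA3, impaired minus young on the log2(normalised reads + 1) scale, with all 22 libraries (dots) and without young rat R9876 (squares), and a line at the median of all genes (-0.01). The MHC class II list lies far to the right at 1.86, and the leptomeningeal list moves from -0.56 to -0.06.

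No gene was retested in the lists of hippocampal neurons. The list medians were -0.25 for CA1 pyramidal cells (4 of 6 lower), 0.24 for CA3 pyramidal cells (6 of 9 higher), 0.18 for dentate granule cells (8 of 10 higher), -0.18 for newborn neurons (10 of 12 lower) and -0.09 for interneurons (17 of 18 lower). Without the libraries nearer another subfield they were 0.18, -0.04, -0.15, -0.15 and 0.05. The CA1, CA3 and dentate granule lists had served to pick those libraries, so their medians here are no separate check. Against 45.0% of all genes with higher values, vesicle release genes were higher in 34 of 41 (median 0.09), NMDA and metabotropic glutamate receptors in 22 of 26 (0.09), AMPA and kainate receptors in 16 of 25 (0.04) and potassium channels in 51 of 73 (0.09), with no gene retested in any of them. Without R9876 these counts were 25 of 41, 20 of 26, 13 of 25 and 53 of 72, beside 46.6% of all genes, and without the libraries nearer another subfield the medians were 0.06, 0.05, 0.0028 and 0.05. In the WT table the medians were 0.03, -0.0027, -0.02 and 0.06. Syt2, a calcium sensor of fast release, had medians of 115 and 160 normalised reads (0.57 ± 0.17, p = 0.00269), and its Ion Proton change was 0.10. Nuclear genes of the respiratory chain had a median of -0.09 with 4 of 72 higher, and ribosomal proteins -0.09 with 3 of 82 higher, again with none retested. Without the libraries nearer another subfield these medians were -0.03 and -0.01, in rats numbered below 9000 they were 0.0045 and -0.01, and in WT libraries they were 0.0032 and 0.01. In rats numbered from 9000 up they were -0.23 and -0.16, and in the Ion Proton table -0.14 and -0.18. Genes induced by neuronal activity (27 tested, median -0.07) and myelin genes (19 tested, median -0.07) had none retested either. A further list held genes that the study had named for a change with age in each of CA1, CA3 and DG on these same samples. Nearly all had been named as increased, so neither the list nor the direction of its genes is independent evidence. Of the 25 tested genes of this list, 12 were retested, all higher (median 0.47).

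The same contrast in CA1 and DG of these rats gave changes of RT1-Db1 of 1.77 and 2.66, of C3 of 0.76 and 0.88, of Fcgr2b of 0.62 and 0.78, of Mpeg1 of 0.32 and 0.42 and of Gfap of 0.35 and 0.43 (log2). No gene changed differently in CA3 and CA1 at an adjusted p under 0.05 (limma interaction, 0 of 14242 genes, 266 or 1.87% at an unadjusted p under 0.05, edgeR 0 and 404) or in CA3 and DG (0 of 14168, 157 or 1.11%, edgeR 0 and 236). Tmem163 was -0.51 in CA3 and 0.24 in CA1 (difference p = 0.0157), Cnpy4 was -0.31 in CA3, 0.02 in CA1 and 0.01 in DG (p = 0.0243 and 0.0417), Dctd was 0.35 in CA3 and -0.0014 in DG (p = 0.0224), and Tmem132c was -0.57 in CA3 and 0.12 in DG (p = 0.0318), unadjusted values that did not hold after adjustment.

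Impaired and unimpaired old rats were compared in CA3 as well, with the impaired libraries shared by both contrasts. No gene reached an adjusted p under 0.05 (limma, 0 of 14232, 199 or 1.4% at an unadjusted p under 0.05, edgeR 0 and 173). The impaired-minus-unimpaired change of RT1-Db1 was -0.30 (p = 0.619), of Cd74 -0.11 (p = 0.83), of Mpeg1 0.12 (p = 0.249), of C3 0.20 (p = 0.343) and of Gfap 0.12 (p = 0.328). Unimpaired medians were 138 normalised reads for RT1-Db1, 857 for Mpeg1, 1104 for C3 and 14817 for Gfap, each above the young median. Nek6 was 0.17 higher in impaired than in unimpaired rats (p = 0.0222), Ptn changed by -0.19 (p = 0.0137), Tmem163 by -0.39 (p = 0.0425) and Tnnc2 by -0.64 (p = 0.00585).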

How the data were processed

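The authors had deposited gene tables for Illumina, Ion Proton and WT libraries. The deposited values are a signal, read counts divided by DESeq2 size factors, and 100.0% of the values above 0 returned whole reads (tolerance 0.001). Per the labels and the study's methods, Illumina reads had been aligned to rn5 with STAR 2.5 and counted with featureCounts 1.4.4, and Ion Proton reads with TopHat2 and Bowtie2. For the WT table the aligner is not given in the sources used here. Whether counting used strand is not settled, so reads of overlapping and antisense genes cannot be told apart. Changes were fitted with limma 3.58.1 on log2(value + 1) over genes with a mean of at least 10, with trend and Benjamini-Hochberg adjustment. This scale understates changes of low genes. The count models edgeR 4.0.16 and DESeq2 1.42.0 (R 4.3.3) were run on the recovered reads as alternatives. A gene was retested when Illumina p was under 0.01 and the one-sided Ion Proton p under 0.05. Library measures were compared with two-sided permutation tests (100000 resamples). Depth was 3.25 to 42.8 M reads per Illumina library (median 10.3), 5.48 to 14.1 for Ion Proton and 4.91 to 20.6 for WT. Rats were grouped by the titles. Genes were named by a rule: the 12 highest and 8 lowest retested genes, those past the adjusted threshold and list members. One retested gene is not reported here, and the others were named after their values were seen. Members and lists were chosen with earlier results of these data known. The scripts were tested on simulated data.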

Additional observations from a re-analysis of the deposited data

Results flagged for a closer look

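In the young group, 61 gene values and library measures were searched for a library that stands apart by Dixon's test, and 17 did, where chance flags about 5% of groups. The impaired group was not searched, so a library that stands apart there is not flagged. R2238, for example, had RT1-Db1 at 1975 normalised reads against 342 in the next impaired library. Of the 17 flags in the young group, 12 were young rat R9876. It stood apart by its meningeal and vascular markers, with sums of 181611 normalised reads for leptomeninges (nearest other young library 8305), 2446 for border macrophages (306), 22195 for endothelium (10639) and 10965 for mural cells (3752). It also stood apart by T cell markers at 116 (56.7) and by the markers of neighbouring regions (subiculum, striatum, thalamus) at 7714 (4855). Among the retested genes it was apart for Ptn at 6318, Tmem132c at 97.7, Cnpy4 at 208, LOC688090 at 213, RT1-Da at 268 and, on the low side, Blnk at 87.9 normalised reads. Young rat R2221 stood apart by choroid plexus markers at 20851 (nearest 3368), by oligodendrocyte precursor markers at 26537 (18228) and by interneuron markers on the low side at 16330 (20489). Young R9879 was apart for Stac at 117 (62.6) and R9780 for Cyp2a3 at 26.5 (13.0).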

How the results depend on the processing

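No retested gene changed sign in any alternative where it could be fitted (Prl had no value in both edgeR fits, in rats numbered from 9000 up and without impaired R2233, and Cyp2a3 none in WT). The count of 39 retested genes became 67 with edgeR (35 higher, 32 lower), 74 with DESeq2 (53 and 21), 114 in rats numbered from 9000 up (60 and 54, with 7 of the 114 among the 39) and, chosen after seeing the data, 60 with the number series as covariate and without R9876 (54 and 6). Rats numbered below 9000 gave 36 (29 and 7), with 13 among the 39. Without R9876, edgeR called 56 (50 and 6). The share of higher calls was 82.1% with all libraries, 93.5% without R9876, 86.3% after quantile normalisation, 71.6% with DESeq2, 52.2% with edgeR and 52.6% in rats numbered from 9000 up. Leaving out 1 library at a time gave 31 to 59 genes (59 without impaired R1931), and 21 of the 39 kept the call in all 22 such fits. Among the calls that most often failed were those of Ptn, Tnnc2, Cnpy4, Nek6, Tmem163, Wdfy4 and Stac, each kept in 7 to 12 fits. Dctd lost it without R9876, Fgfrl1 without R1922, Ncf1 without R1922 or R2182, and Psd4, Fcrl2, Prl, Tmem132c, Nckap1l, Blnk and Emr1 in 3 to 8 fits. Without the 6 libraries nearer another subfield, 41 genes were called, 19 of them among the 39. Those not called then included P2ry13 (0.42, p = 0.0147), Pla2g7 (0.21, p = 0.071) and Dctd (0.24, p = 0.0574, limma). Genes with an adjusted p under 0.05 numbered 0 to 1 with 1 library left out and 7 with DESeq2 (C3, C4b, Cdh1, Csf3r, Lilrb3l, Mpeg1 and Prl). They numbered 1 (Cdh1) without R9876, in rats numbered below 9000, without libraries nearer another subfield and with the series covariate without R9876. The cause of these differences was not tested. With the rat as replicate block, since the same rats gave CA3, CA1 and DG, 0 genes differed between CA3 and CA1 (457 at an unadjusted p under 0.05, within-rat correlation 0.156) and 0 between CA3 and DG (235, correlation 0.11), and no call changed. Prl and Cyp2a3 rest on few reads.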
